A study of Mus musculus with 6 samples.

Results

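The 9 miRNAs described here, out of 1915 mature miRNAs counted, are the classical miRNAs of striated muscle, read out in the embryonic mouse brain. They were chosen by name, as arms of miR-1, miR-133, miR-206, miR-208 and miR-499, at a time when the male and female levels of these libraries were known, so their difference between the sexes is a description and was not used as evidence. The study sequenced small RNA from the whole brain of wild-type C57BL/6 mouse embryos at E15.5. Neither group was treated, and 3 female libraries (F1, F2 and F3) and 3 male libraries (M1, M2 and M3) were counted. Each library was made from RNA pooled from several embryos whose sex was read from the gonads, so the pools and not the embryos are the replicates.

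In vertebrates, a muscle miRNA is cut from a hairpin precursor whose arms, 5p and 3p, can each give a mature strand, and the strand that is kept directs the silencing complex to messages through its seed (bases 2 to 8). miR-1 and miR-133a are made in both skeletal and cardiac muscle, as pairs from shared transcripts under the control of MyoD, Mef2 and SRF. miR-206 and miR-133b come from a locus used in skeletal muscle, where miR-206 promotes differentiation of myoblasts and the repair of neuromuscular synapses. miR-208a, miR-208b and miR-499 are made from introns of myosin heavy chain genes, and miR-208b and miR-499 help to maintain slow fibres.

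The mature sequences show how the members group by seed, which is in capitals, and they are taken from the RefSeq table (GRCm38.p6), which held 6 of the 9 members. miR-1a-3p, miR-133a-3p and miR-133a-5p are named only.
mmu-miR-206-3p: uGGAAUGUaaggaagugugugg
mmu-miR-206-5p: aCAUGCUUcuuuauauccucaua
mmu-miR-133b-3p: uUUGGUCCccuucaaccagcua
mmu-miR-208a-3p: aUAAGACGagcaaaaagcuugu
mmu-miR-208b-3p: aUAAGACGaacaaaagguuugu
mmu-miR-499-5p: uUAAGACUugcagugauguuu

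miR-208a-3p and miR-208b-3p have the same seed and differ at 3 of 22 positions (G10A, A16G and C18U, counted from the 5′ end, with the base of miR-208a-3p first). The seed of miR-499-5p differs from theirs at 1 position (G8U). miR-206-3p is known to share its seed with miR-1a-3p, and miR-133b-3p to be nearly identical to miR-133a-3p, so that reads of the latter pair may not be fully separated in the counts.

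The precursors lie apart in mm9 (NCBIM37), the build used for the deposited data. Mir206 is on chromosome 1 from 20669091 to 20669163 and Mir133b from 20672850 to 20672968, both on the forward strand, with 3686 bases between them and no other annotated gene over either. A copy of the shared pair is on chromosome 2, where Mir1a-1 lies from 180123753 to 180123829 and Mir133a-2 from 180133084 to 180133187, also without an overlapping gene. Mir499 is in an intron of Myh7b on chromosome 2 from 155448616 to 155448694. Mir208a is in an intron of Myh6 on chromosome 14 from 55567897 to 55567979, and Mir208b in an intron of Myh7 from 55594537 to 55594613, all on the strand of the host gene. The hairpins of Mir206 and Mir499 are shown because opposite arms of them gave the reads, and the mature arms are in capitals.
Mir206: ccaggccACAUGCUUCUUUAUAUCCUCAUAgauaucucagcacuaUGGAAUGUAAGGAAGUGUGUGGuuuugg
Mir499: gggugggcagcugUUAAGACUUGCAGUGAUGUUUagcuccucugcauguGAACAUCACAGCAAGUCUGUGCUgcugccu

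Total counts on miRNAs ranged from 14802675 to 59362011 reads per library. F2 had the highest total and the fewest miRNAs detected, 660 against 790 to 915 in the other 5. The libraries had the neuronal miRNAs of a brain sample at high levels, with miR-9-5p between 148598 and 195822 CPM (counts scaled to the library total, the scale of every level given here) and miR-124-3p between 6010 and 10484 CPM. Counts are of reads, without molecular identifiers, so the intervals and limits given for single libraries (95% Wilson intervals, and 3 reads where no read was counted) cover counting error only. In whole tissue, fewer cells of a type and less of a miRNA per cell cannot be told apart.

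Muscle miRNAs were present in every brain library, at levels several times higher in males. Together the 9 members took 0.119%, 0.0392% and 0.0547% of the reads in F1, F2 and F3 and 0.599%, 0.616% and 0.553% in M1, M2 and M3. On the log2 scale the male mean of this sum was 3.21 above the female mean, and the sexes did not overlap. Without F2 the difference was 2.87, and without the arms of miR-206 it was 2.22 over all libraries. The 3 male libraries lay close together, while among the females F1 was the highest and F2 the lowest. Of the 9 members, 7 had at least 1 read. All 7 were detected in each male library, 6 in F1 and F3, and 5 in F2.

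**Figure D1:**
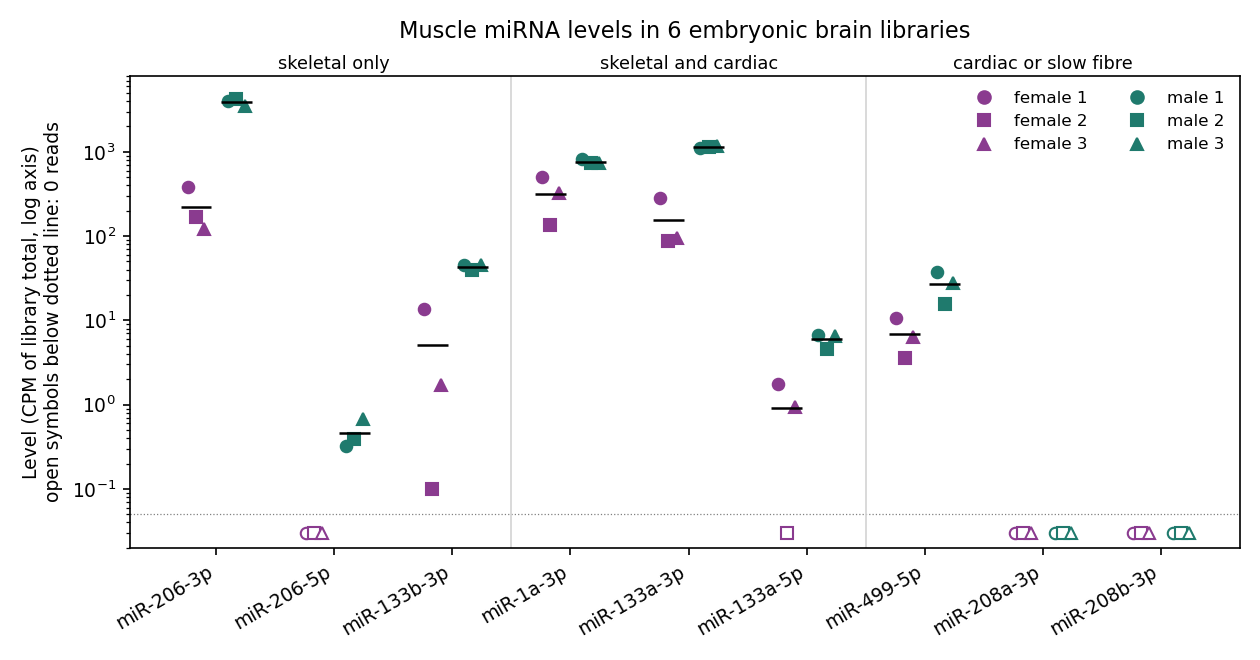
Level of each muscle miRNA in each library, in CPM on a log axis, with females in purple, males in green, a symbol for each replicate and a bar at the mean of each sex; open symbols below the dotted line are libraries with 0 reads. The male libraries lie above the female libraries for all 7 members with reads, and miR-208a-3p and miR-208b-3p had none.

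miR-206-3p, the skeletal muscle guide strand, had the most reads of the members in males. It was counted at 382, 167 and 122 CPM in F1, F2 and F3 and at 3963, 4229 and 3534 CPM in M1, M2 and M3. The lowest male library was 9.24 times the highest female library. This placed it between 42nd and 45th among the miRNAs of a male library by reads, and between 152nd and 231st in a female library. Its log2 fold change, male over female, was 4.02 (standard error 0.31), with a range of 3.73 to 4.65 when single libraries were left out.

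miR-133b-3p, a near copy of miR-133a-3p whose gene lies next to that of miR-206, was far less abundant. It was counted at 13.7, 0.101 and 1.70 CPM in F1, F2 and F3 and at 45.9, 39.3 and 45.2 CPM in M1, M2 and M3. The male libraries were all higher and close to each other, with a coefficient of variation of 8.31%. The female libraries were spread widely, with a coefficient of variation of 144%, and the value of F2 rests on 6 reads of 59362011 (0.0463 to 0.221 CPM). The log2 fold change was 3.04 (standard error 0.81). It was 2.47 without F2 and 5.52 without F1.

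miR-206-5p, the passenger strand of the miR-206 hairpin, was at the edge of detection. No read was counted in the female libraries, and 6, 17 and 16 reads were counted in M1, M2 and M3. A count of 0 over the 3 female libraries pooled allows up to 0.0273 CPM. The pooled male level of 0.452 CPM was 16.6 times that limit. This ratio takes the male level as counted, and the limit covers counting error only. Among the female libraries, F2 gave the most reads to the pool, so the pooled limit rests largely on it. F2 also had the fewest miRNAs detected (660) and no read of miR-133a-5p. Taken singly, F1 and F3 allowed up to 0.203 and 0.0838 CPM, beside 0.321 CPM in M1, the lowest male library. Within the precursor, the 5p arm took 0.00810% (0.00371 to 0.0177%), 0.00915% (0.00571 to 0.0147%) and 0.0192% (0.0118 to 0.0311%) of the reads in M1, M2 and M3. The female libraries allow shares up to 0.0530%, 0.0302% and 0.0684%, above each of the male values, so a difference in arm use was not detectable at this depth.

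miR-1a-3p, which restrains myoblast proliferation and promotes differentiation, had the smallest fold change of the members that passed the threshold of the test across all miRNAs. It was counted at 498.6, 134 and 320 CPM in F1, F2 and F3 and at 826, 740 and 729 CPM in M1, M2 and M3. The sexes did not overlap, but the lowest male library was only 1.46 times the highest female library. The log2 fold change was 1.17 (standard error 0.27), and it was 0.83 without F2 and 1.65 without F1.

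miR-133a-3p, which is processed from the same transcripts as miR-1a and acts on proliferation through SRF, differed more than its partner. It was counted at 285, 86.7 and 95.0 CPM in F1, F2 and F3 and at 1108, 1130 and 1189 CPM in M1, M2 and M3. F1 was high among the females, and the males had a coefficient of variation of 3.67%. The log2 fold change was 2.78 (standard error 0.31), with a range of 2.53 to 3.55 on leaving out single libraries.

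miR-133a-5p, the passenger arm, had 26, 0 and 34 reads in F1, F2 and F3 and 125, 203 and 155 reads in M1, M2 and M3. The males ranged from 4.62 to 6.69 CPM and the highest female was at 1.76 CPM. It did not pass the threshold (log2 fold change 2.66, standard error 1.45), and its value was 2.07 without F2 and 3.55 without F1. As a share of both arms it took 0.611% (0.418 to 0.894%) in F1, 0.990% (0.709 to 1.38%) in F3 and 0.600%, 0.407% and 0.549% in M1, M2 and M3. F2 had 0 reads of this arm beside 5145 of the 3p arm, which allows at most 0.0583%, below the interval of every other library.

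miR-499-5p was the 1 cardiac or slow-fibre member with reads. It was counted at 10.7, 3.57 and 6.28 CPM in F1, F2 and F3 and at 37.5, 15.7 and 28.1 CPM in M1, M2 and M3. The males were all above the females but were themselves spread, with a coefficient of variation of 40.4%, against 3.67 to 8.97% in males for miR-206-3p, miR-133b-3p, miR-1a-3p and miR-133a-3p. The male level exceeded the female level by 1.86 on the log2 scale (standard error 0.52), by 1.58 without F2 and by 2.34 without F1. No read of the other arm, miR-499-3p, was counted in a library.

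miR-208a-3p, the heart-restricted miRNA of Myh6, and miR-208b-3p, that of Myh7, had no read among 196199952 reads in the 6 libraries. A count of 0 allows a level of up to 0.0153 CPM over all libraries together, and of 0.0505 to 0.203 CPM in a library. Both were below the filter on reads and were not tested.

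Across the 1120 miRNAs tested between the sexes with edgeR's quasi-likelihood test, 36 passed the adjusted threshold of 0.05 as higher in males and 59 as higher in females, or 50 and 39 when counts were scaled by library size alone. These are 8.48% of the miRNAs tested in either direction, 3.21% as higher in males and 5.27% as higher in females. Of the 7 members tested, 5 passed (miR-206-3p, miR-133a-3p, miR-133b-3p, miR-1a-3p and miR-499-5p), all higher in males. The number was 2, miR-206-3p and miR-133a-3p, without F3 and also without M1. All 7 had each male library above each female library, beside 15.4% of the miRNAs tested. miR-206-5p was tested only through its male reads. The median log2 fold change of the 7 was 2.78, beside -0.02 for all miRNAs tested. For miR-206-5p, the log2 ratio of its pooled male level to the female limit was 4.05. Setting it there leaves the median at 2.78, as would any value above 2.78, so this is no check. Because the members were chosen with this contrast in view, nothing is read from these counts.

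**Figure D2:**
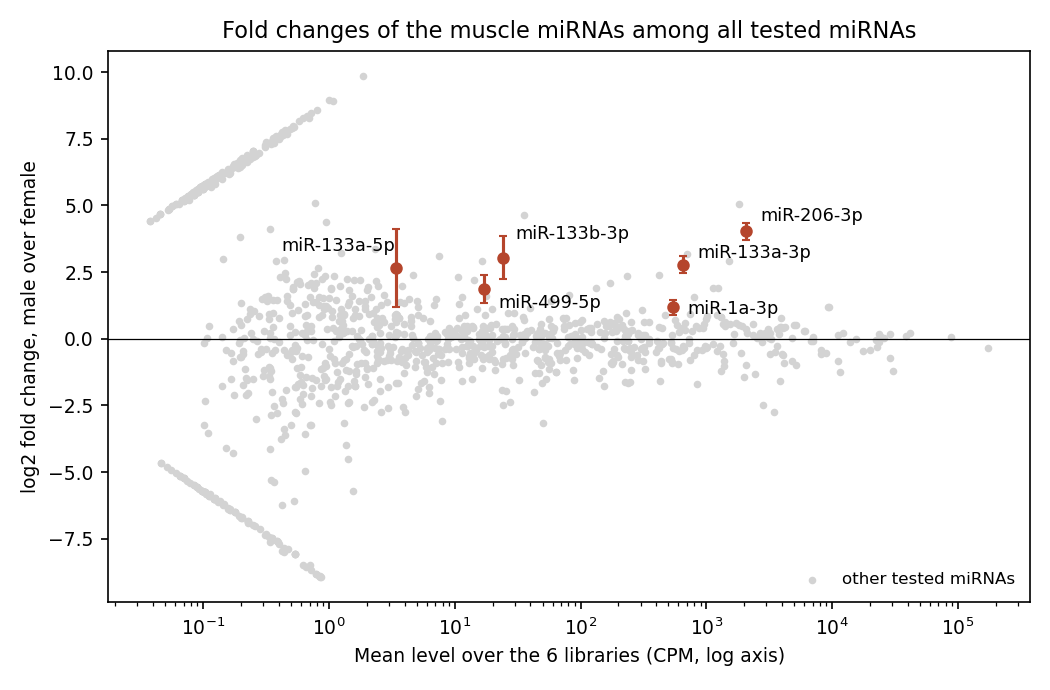
Log2 fold change, male over female, against the mean level over the 6 libraries in CPM on a log axis, for all tested miRNAs in grey and for 6 members in red with standard errors; miR-206-5p, without female reads, is in grey. All 6 members in red lie above 0, and miR-206-3p, at 4.02, has the highest value among them.

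Among the 553 miRNAs that averaged 100 reads or more, miR-206-3p had the 3rd highest log2 fold change, miR-133b-3p the 6th, miR-133a-3p the 9th, miR-499-5p the 19th and miR-1a-3p the 34th. In that set, 38 miRNAs, or 6.87%, had a log2 fold change over 1.

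The makeup of the reads on the members differed between the sexes, mainly in miR-206-3p and miR-1a-3p. miR-206-3p made up 32.1%, 42.7% and 22.4% of the reads on the members in F1, F2 and F3, and 66.2%, 68.7% and 63.9% in M1, M2 and M3. miR-1a-3p made up 41.8%, 34.3% and 58.6% in females and 13.8%, 12.0% and 13.2% in males, in the same order. The share of miR-133a-3p overlapped between the sexes, at 17.4 to 23.9% in females and 18.4 to 21.5% in males. The order of the members in each male library was miR-206-3p, miR-133a-3p, miR-1a-3p, miR-133b-3p, miR-499-5p, miR-133a-5p and miR-206-5p from high to low, with no overlap of the male ranges between neighbours. miR-1a-3p came first in F1 and F3 and miR-206-3p in F2, and the female ranges of miR-1a-3p, miR-206-3p and miR-133a-3p overlapped. These are orders of reads from strands of 21 to 23 bases where a length is known, and ligation and amplification can differ between sequences.

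**Figure D3:**
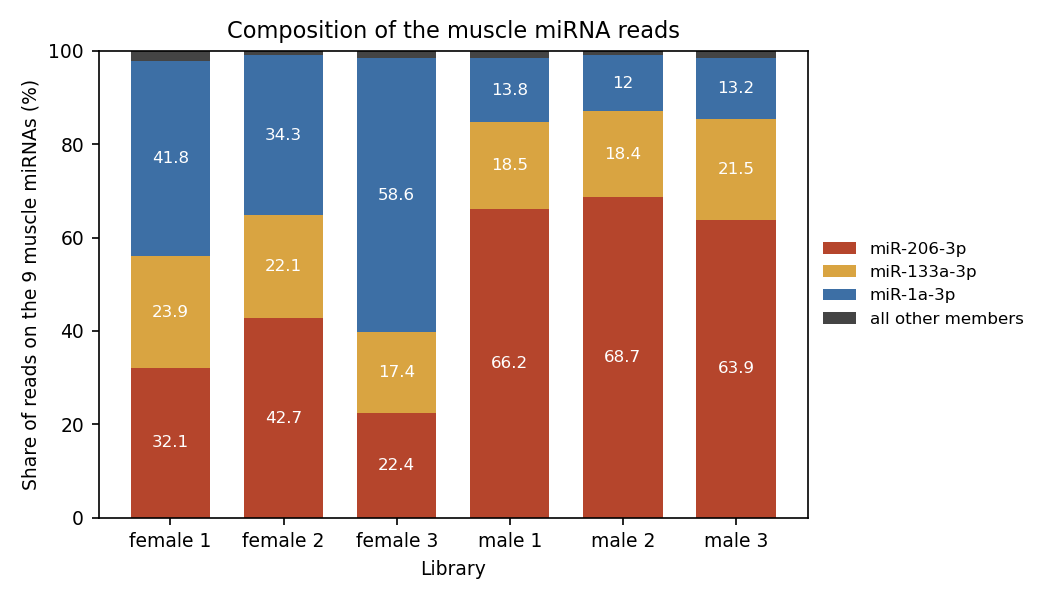
Share of the reads on the 9 muscle miRNAs taken by miR-206-3p, miR-133a-3p, miR-1a-3p and all other members, in percent, for each library. miR-206-3p takes 63.9 to 68.7% in the male libraries and 22.4 to 42.7% in the female libraries, where miR-1a-3p takes 34.3 to 58.6%.

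Ratios within a library do not depend on its scaling and show which members moved apart. The log2 ratio of miR-206-3p to miR-1a-3p, which pairs a skeletal-only member with a shared one of the same seed, was -0.38, 0.32 and -1.39 in F1, F2 and F3 and 2.26, 2.51 and 2.28 in M1, M2 and M3. The male mean was 2.84 above the female mean, against a standard deviation of 0.86 in females and 0.14 in males. The log2 ratio of miR-206-3p to miR-133a-3p was 0.42, 0.95 and 0.37 in females and 1.84, 1.90 and 1.57 in males, a difference of 1.19 without overlap.

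The shared members also moved apart from each other. The log2 ratio of miR-133a-3p to miR-1a-3p was -0.80, -0.63 and -1.75 in F1, F2 and F3 and 0.42, 0.61 and 0.71 in M1, M2 and M3. miR-1a-3p thus had more reads than miR-133a-3p in every female library and fewer in every male library, and both are known to be cut from the same transcripts. The difference of 1.64 ranged from 1.30 to 1.86 on leaving out single libraries.

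The neighbours miR-206 and miR-133b kept no such separation. The log2 ratio of miR-206-3p to miR-133b-3p was 4.80, 10.58 and 6.16 in F1, F2 and F3 and 6.43, 6.75 and 6.29 in M1, M2 and M3, so the female range enclosed the male range. The male mean was 0.69 below the female mean with all libraries and 1.01 above it without F2. For the near-identical pair, the log2 ratio of miR-133b-3p to miR-133a-3p was -4.38, -9.63 and -5.79 in females and -4.59, -4.84 and -4.72 in males, which overlap. The male mean was 1.88 above the female mean and 0.37 above it without F2. F2 thus had far fewer reads of miR-133b-3p for its reads of miR-206-3p and miR-133a-3p than any other library.

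The slow-fibre member did not move apart from miR-1a-3p in the same way. The log2 ratio of miR-499-5p to miR-1a-3p was -5.53, -5.23 and -5.67 in F1, F2 and F3 and -4.46, -5.56 and -4.69 in M1, M2 and M3, with M2 inside the female range. Against miR-133a-3p it was -4.73, -4.60 and -3.92 in females and -4.88, -6.17 and -5.40 in males. The male mean was lower here, at -5.48 against -4.41 in females, without overlap.

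**Figure D4:**
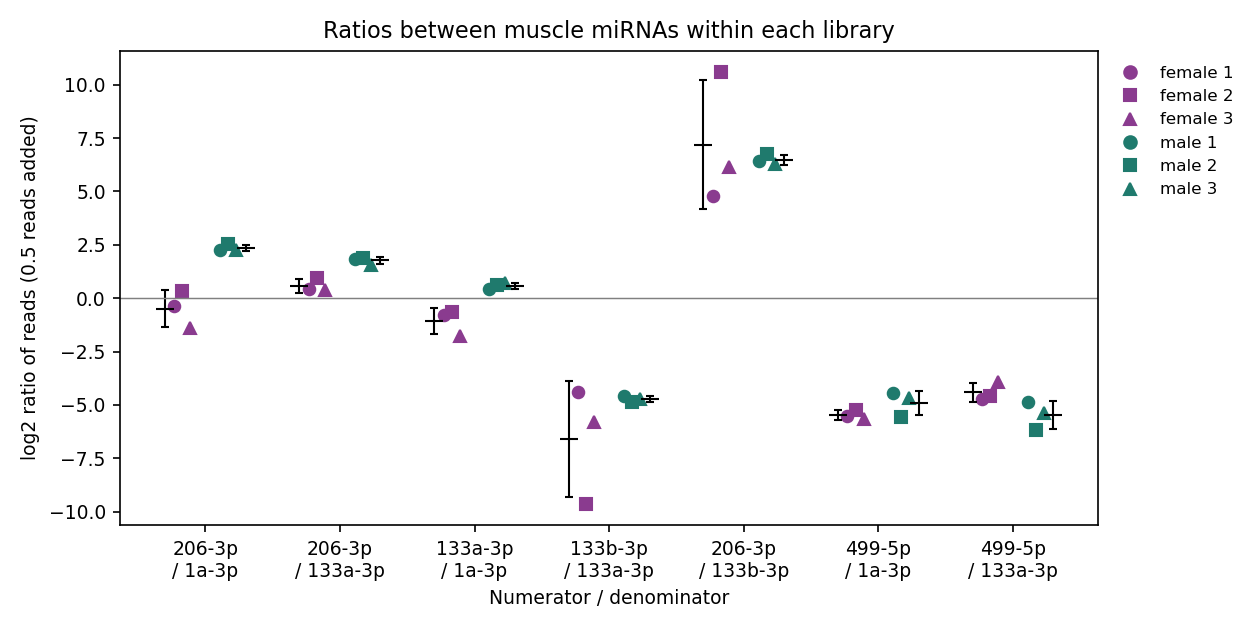
Log2 ratio of the reads of a pair of members within each library, after adding 0.5 reads, with black bars for the mean and standard deviation of each sex (n = 3). Ratios with miR-206-3p or miR-133a-3p over miR-1a-3p lie apart by sex, those with miR-133b-3p overlap, and F2 is the far point in both of the latter.

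Over the 6 libraries the level of miR-206-3p on the log2 scale was most like that of miR-493-5p (Pearson r = 0.997), miR-200c-3p (0.995), miR-429-3p (0.995), miR-200b-3p (0.994) and miR-200a-5p (0.991) among the 553 miRNAs averaging 100 reads or more, members left aside. miR-1a-3p was most like miR-199a-3p (0.992) and miR-199b-3p (0.992), which had nearly the same counts, miR-125a-3p (0.990), miR-214-5p (0.986) and miR-199a-5p (0.982). The 5 miRNAs next to miR-206-3p include 4 of the epithelial miR-200 family, and the 5 next to miR-1a-3p include 4 of the mesenchymal miR-199 and miR-214 group. Between members, miR-206-3p was nearest to miR-133a-3p (0.988), and miR-1a-3p to miR-133b-3p (0.996). The 6 points of each correlation share libraries and depth and lie in a cluster for each sex, so the values describe likeness only.

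Of 9 other mature sequences from these families, 6 had no read in any library, 3 were tested and 0 passed with edgeR or DESeq2, also 0 at an unadjusted p under 0.05. miR-1b-3p had 2 and 17 reads in F1 and F3 and none elsewhere. miR-1b-5p had 29 reads in F3 and 20 and 46 in M1 and M2. miR-208a-5p had 14 reads in M3, without a read of miR-208a-3p there.

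Of 13 miRNAs with roles in muscle differentiation but a wider distribution, 4 passed the threshold as higher in males and 1 as higher in females. Of all miRNAs tested, 3.21% passed as higher in males and 5.27% as higher in females. Their summed level was 29053 to 30931 CPM in females and 36643 to 40656 CPM in males. Most of this sum was miR-26a-5p, at 21970 to 23590 CPM in females and 24576 to 28792 CPM in males. In log2 fold change, with its standard error in parentheses, the most abundant were at 0.08 (0.25) for miR-26a-5p, 0.46 (0.21) for miR-27b-3p and 0.81 (0.25) for miR-486b-5p, of which only miR-486b-5p passed. The others that passed are named after their values were seen. They were miR-486a-5p (0.80), which had nearly the same counts as miR-486b-5p, miR-378a-3p (1.89), from an intron of the coactivator gene Ppargc1b, miR-214-3p (2.38), which also stands on the list for mesenchyme, and miR-22-3p (-0.94), which was higher in females. miR-486 is also abundant in red blood cells. Without F3 and also without M1, 2 passed as higher in males and 0 as higher in females, and without F2 5 and 2.

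Of 4 smooth muscle miRNAs of the miR-143 and miR-145 cluster, 0 passed with edgeR or DESeq2 on all libraries and 2 had an unadjusted p under 0.05 with either. Without F2, 1 passed as higher in females with edgeR. With 1 factor of unwanted variation (RUVr) in the fit, 1 passed as higher in females with edgeR, and 1 in each direction with DESeq2. Their summed level was 3917 to 6592 CPM in females and 3311 to 4307 CPM in males.

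Lists for cell types other than muscle were read beside the members. On the list for epithelium, 6 of 7 miRNAs passed as higher in males, beside 3.21% of all miRNAs tested. Its summed level was 730 to 1545 CPM in females and 9181 to 9499 CPM in males. Of its 3 most abundant miRNAs over all 6 libraries, miR-205-5p, a miRNA of stratified epithelium, was at 39.3 to 177 CPM in females and 3401 to 3799 CPM in males. miR-200b-3p was at 216 to 543 CPM in females and 2586 to 2759 CPM in males, and miR-203-3p at 301 to 430 and 1192 to 1261 CPM, so that miR-205-5p was the highest of the 3 in males and the lowest in females. On the list for mesenchyme, 4 of 6 passed as higher in males, beside the same 3.21%. Its summed level was 4526 to 12680 CPM in females and 19346 to 23160 CPM in males. The most abundant of this list, miR-199a-3p, was at 2368 to 7795 CPM in females and 12254 to 14273 CPM in males. On the list for neurons, 4 of 7 passed as higher in females, beside 5.27% of all miRNAs tested. On all libraries the number ranged from 2 with library size scaling to 5 with DESeq2. The summed level was 230170 to 273749 CPM in females and 184182 to 212720 CPM in males. Most of this sum was miR-9-5p, which did not pass (log2 fold change -0.36, standard error 0.33). Of the next most abundant, miR-9-3p passed (-1.20, standard error 0.28) and miR-124-3p did not (-0.56, standard error 0.23). Of 3 red blood cell miRNAs 0 passed with edgeR or DESeq2 on all libraries, and 0 had an unadjusted p under 0.05, against 1 with edgeR without F2 and 1 with edgeR and a RUVr factor. Their summed level was 26.4 to 62.2 CPM in females and 34.6 to 53.8 CPM in males. Among the females, F1 was the highest and F2 the lowest for the summed members and for the lists for epithelium, mesenchyme and neurons, while miR-206-3p was lowest in F3. On leaving out single libraries, the count for epithelium was 6 throughout, that for mesenchyme fell to 2 without M1 and was 5, with 1 higher in females, without F2, and that for neurons fell to 1 without M1 and to 2 without F1, F3 or M2. The part of muscle, epithelium or mesenchyme taken with a brain in the sex difference of the members was not tested.

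**Figure D5:**
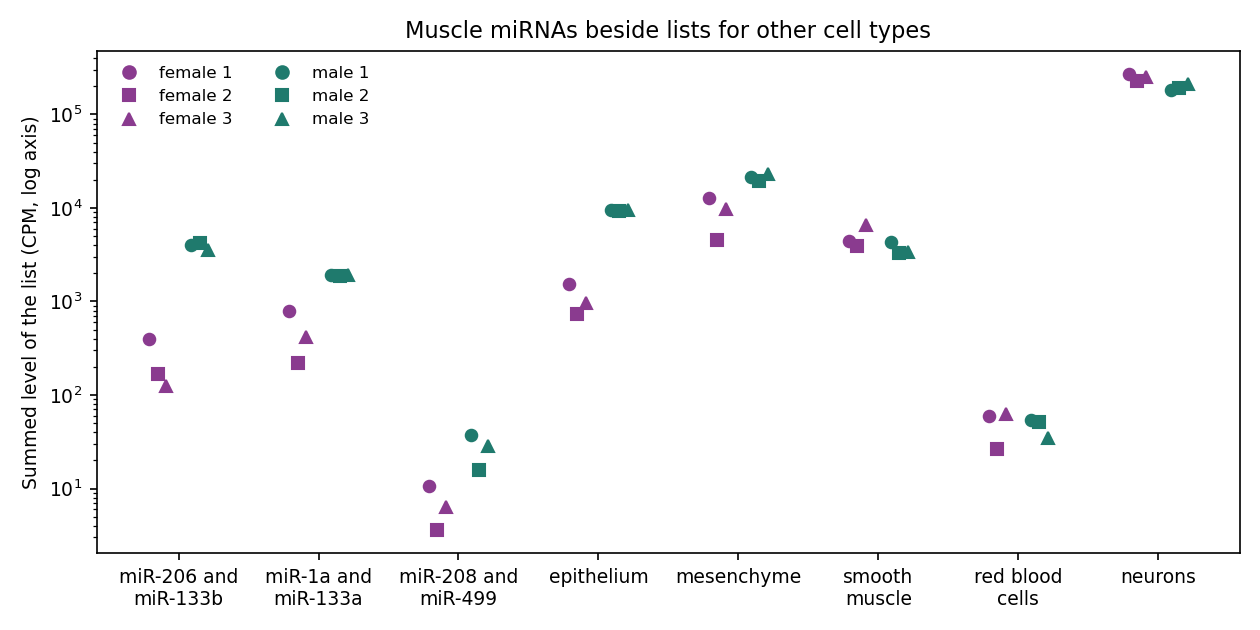
Summed level of the miRNAs of each list in each library, in CPM on a log axis, with females in purple, males in green and a symbol for each replicate. The muscle, epithelium and mesenchyme lists lie higher in each male library, the neuron list lies lower, and the smooth muscle and red blood cell lists overlap.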

How the data were processed

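Small RNA was sequenced from 6 libraries of embryonic mouse brain. The authors removed adaptors with cutadapt 1.15, mapped reads with Bowtie 1.2.1 (genome build mm9) and counted reads on miRBase miRNAs with miRDeep2. The deposited values are raw read counts per mature miRNA, and the authors left them unscaled. How reads shared by near-identical miRNAs were divided is not given in the sources used here.

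Levels (CPM) are scaled to the library total. A miRNA needed 10 reads over all libraries to be tested, and male and female libraries were compared across the rest with edgeR 4.0.16 (R 4.3.3) after TMM scaling, by its quasi-likelihood test. The p-values were adjusted by Benjamini-Hochberg over all 1120 tested miRNAs, with 0.05 as threshold. Each standard error is the size of the log2 fold change divided by the root of its F statistic. With 3 libraries against 3, an exact permutation test cannot give a p below 0.1, and none is given. Ratios between members used counts plus 0.5. The fits were also run on simulated counts, drawn independently for each miRNA and library. No simulated library deviated across many miRNAs, so that run does not bear on how single libraries move the calls. Mature and hairpin sequences are from RefSeq (GRCm38.p6), positions from GENCODE vM1 on mm9, and the 5 hairpins held by both were identical.

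The members and the lists were chosen with earlier results of these data known. The text names all 9 members, other arms of their families with at least 10 reads in a library, and the 5 miRNAs most like miR-206-3p and miR-1a-3p. From the other lists it gives counts, ranges and at most 3 of their most abundant miRNAs, other names being said to be chosen later. Alternatives were library size or upper quartile scaling, DESeq2 1.42.0, 1 RUVr factor in either program, other filters, a block for the replicate number, a sum of miR-133a-3p and miR-133b-3p, 1 or 5 added reads in ratios, TMM-scaled sums, sums without miR-206, and leaving out single libraries.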

Additional observations from a re-analysis of the deposited data

How the results depend on the processing

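The direction of the 6 members with a fold change was the same under every alternative run on them. The members were chosen with this contrast in view, so calls on them describe the processing and nothing is read from them. miR-206-3p and miR-133a-3p stayed past the threshold in all 15 alternatives run on each. miR-133b-3p lost it with library size scaling, with DESeq2, without female replicate 3 and without male replicate 1. miR-1a-3p lost it without female replicate 3 or male replicate 1, and miR-499-5p also without male replicate 3. miR-133a-5p passed with 1 RUVr factor, at a log2 fold change of 3.93 in edgeR and 4.04 in DESeq2. With a library left out, the number of members past the threshold ranged from 2 to 5, and the number of all miRNAs from 30, without male replicate 1, to 203, without female replicate 2, with 60 without female replicate 3. With 1 RUVr factor, all miRNAs past the threshold numbered 223 in edgeR (114 higher in males) and 251 in DESeq2 (146), against 95 (36), and the median log2 fold change of all miRNAs moved from -0.015 to 0.266 and 0.293, and to 0.105 with library size scaling. The summed level of the members differed by 3.21 on the log2 scale and by 2.22 without miR-206. Between 2.87 and 3.67 was found with each library left out. The differences in log2 ratio, with each library left out, ranged from 2.38 to 3.24 for miR-206-3p to miR-1a-3p, 1.09 to 1.38 for miR-206-3p to miR-133a-3p, 1.30 to 1.86 for miR-133a-3p to miR-1a-3p, 0.37 to 2.99 for miR-133b-3p to miR-133a-3p, -1.88 to 1.01 for miR-206-3p to miR-133b-3p, 0.35 to 0.90 for miR-499-5p to miR-1a-3p and -1.37 to -0.73 for miR-499-5p to miR-133a-3p. Deviations from the group means correlated at -0.055, 0.069 and 0.139 for same-numbered libraries, and between -0.201 and 0.16 for the other pairs. The labels do not say what the replicate numbers stand for. With 3 libraries per sex these values cannot show whether same-numbered pools were paired. With the replicate block, 5 members and 92 of all miRNAs passed. The causes of these changes were not tested.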
